A study of Mus musculus with 18 samples.

Results

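Crystallins are the abundant soluble proteins of the eye lens, and the 9 crystallin genes Cryaa, Cryab, Cryba1, Cryba2, Cryba4, Crybb1, Crybb2, Crybb3 and Crygs were followed across sorted mouse thymic epithelial cells (TEC). They were taken by symbol from the 27179 genes of the count table, and all 9 passed the filter on low counts that left 19364 genes for testing. RNA-seq libraries came from wildtype (WT) C57BL/6 mice and from mice of the same background labelled Kat7 knockout (KO). Each pool of mice (WT pools 1, 2 and 3, KO pools 4, 5 and 6) gave 1 library of each of 3 sorted subsets, namely cTEC from the cortex and, from the medulla, mTEChi and mTEClo, which carry much or little MHC class II on their surface. The 18 libraries thus made 6 groups of 3. The sources used here do not give the age of the mice, the part of Kat7 removed, the cells that lost it or any date, so batch and genotype cannot be told apart.

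The lens is built from elongated fibre cells that lose their nuclei and are filled with crystallins. Alpha crystallins are small heat shock proteins that hold damaged proteins in solution, and Cryab, unlike Cryaa, is also made in muscle, heart and many stressed cells. Beta and gamma crystallins share a fold of Greek key motifs and give the lens its refractive power, the beta family being divided into acidic (Cryba) and basic (Crybb) chains. Mature medullary TEC transcribe genes of many other organs at low level, in part through the autoimmune regulator AIRE, so that T cells reactive to those antigens are deleted or diverted. Lens crystallins belong to the antigens of an organ kept behind barriers, and Cryba2 is also known from endocrine cells of gut and pancreas.

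Summed over genes, libraries held 3554089 to 8445355 counts in WT mTEChi, 6802970 to 13373646 in KO mTEChi, 6565309 to 9815559 in WT mTEClo, 14411708 to 19356071 in KO mTEClo, 13300969 to 18338441 in WT cTEC and 15822957 to 20054360 in KO cTEC. Kat7, a histone acetyltransferase gene, ranged over the WT libraries from 38.6 to 83.4 CPM, the read count scaled to library size, and over the KO libraries from 0.765 to 4.16 CPM. Aire, used as the marker of mature medullary cells, was at 1096 to 1229 CPM in WT mTEChi, 633 to 703 CPM in KO mTEChi, 26.2 to 59.3 CPM in WT mTEClo, 24.8 to 55.1 CPM in KO mTEClo, 28.3 to 75.8 CPM in WT cTEC and 11.7 to 22.4 CPM in KO cTEC. The cTEC libraries thus carried some Aire transcript.

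Sequence upstream of the start site was available for 8 of the 9 genes, Cryab being the one with no entry (RefSeq, GRCm38.p6). The windows ran from 250 bases before to 50 bases after the start and were searched on both strands for 6 motifs. For Cryba2, Cryba4, Crybb1 and Crybb3 the start used lay inside the annotated span of the gene, so sequence at the outer end was not searched. Letters of the MAF core TGCTGA, a sequence known from crystallin promoters, were found in 7 of 8 crystallin windows and in 19.5% of all 32851 windows. The TATA box letters TATAAA were in 4 of 8 windows (13.6% of all), the SOX core AACAAT in 2 (10.7%) and the E-box CANNTG in 7 (72.3%). The heat shock core GAANNTTC was in 0 of 8 (7.86% of all), as was the palindromic MAF element, which is TGCTGA followed by its reverse complement with at most 2 bases between (0.0122%). Matches could share letters, as in Cryaa, where the E-box at -112 to -107 ran into the MAF core at -108 to -103, and in Crygs, where the SOX core at -123 to -118 ran into the E-box at -125 to -120. These are matches of letters and not measured binding.

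The 150 bases before the start are shown for 4 genes, chosen to cover a fall, a rise and no call in KO mTEChi, on the strand that reads in the same direction as the transcript, with capitals for the MAF core (TGCTGA, or TCAGCA where it lies on the opposite strand) and for TATAAA. Cryba1 (chr11:77725294-77725443, minus strand) fell in KO mTEChi, Cryba2 (chr1:74893144-74893293, minus strand) rose in the KO of every subset, Crybb1 (chr5:112255670-112255819, plus strand) was not called in mTEChi and fell in KO cTEC, and Crybb2 (chr5:113070118-113070267, minus strand) fell in KO mTEChi and is the 1 gene whose window has no MAF core.
Cryba1: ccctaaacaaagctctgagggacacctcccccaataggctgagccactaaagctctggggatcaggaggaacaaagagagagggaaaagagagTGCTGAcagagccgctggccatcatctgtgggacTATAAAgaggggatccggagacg
Cryba2: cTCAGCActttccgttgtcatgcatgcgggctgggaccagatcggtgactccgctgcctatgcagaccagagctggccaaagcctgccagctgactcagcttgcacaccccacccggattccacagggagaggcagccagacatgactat
Crybb1: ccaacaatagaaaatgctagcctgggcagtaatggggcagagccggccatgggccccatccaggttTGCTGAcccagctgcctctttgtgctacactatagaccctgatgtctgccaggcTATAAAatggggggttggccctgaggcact
Crybb2: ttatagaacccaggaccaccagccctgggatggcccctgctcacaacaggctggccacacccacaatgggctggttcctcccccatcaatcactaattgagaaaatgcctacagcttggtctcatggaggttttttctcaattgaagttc
Counted from the start, the MAF core begins at -57 in Cryba1, -149 in Cryba2 and -84 in Crybb1. TATAAA begins at -23 in Cryba1 and at -30 in Crybb1, and in Cryba2 it lies across the start itself (-3 to 3), outside the stretch shown in capitals. A MAF core and a TATAAA upstream of the start were found in Cryba1 and Crygs, which fell in KO mTEChi, and in Crybb1, which was not called there. In Crygs, whose sequence is not shown, they begin at -200 and -25. Whether these letters go with the KO effect was not tested.

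In WT mice most of the crystallin genes were transcripts of mTEChi. Against WT mTEClo, 7 of 9 were higher in mTEChi (32.6% of all genes tested were) and 2, Cryab and Crybb3, were lower (26.7%), and against WT cTEC the counts were again 7 higher (35.9%) and 2 lower (28.5%). The median log2 difference of the 9 genes was 4.04 from mTEClo and 3.95 from cTEC, beside 0.08 and 0.13 over all genes. Per kilobase of the length in the file (RPKM), the order in WT mTEChi ran from Cryba2 (57.4 ± 3.65, SD, n = 3 as for all levels below), Cryab (46.2 ± 2.52) and Cryaa (42.4 ± 3.06) to Crybb3 (9.51 ± 1.68) and Cryba1 (8.03 ± 1.88), with the other 4 genes between 12 and 16.7 RPKM. In bulk libraries such as these, fewer cells that express a gene and less RNA per cell cannot be told apart.

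**Figure D1:**
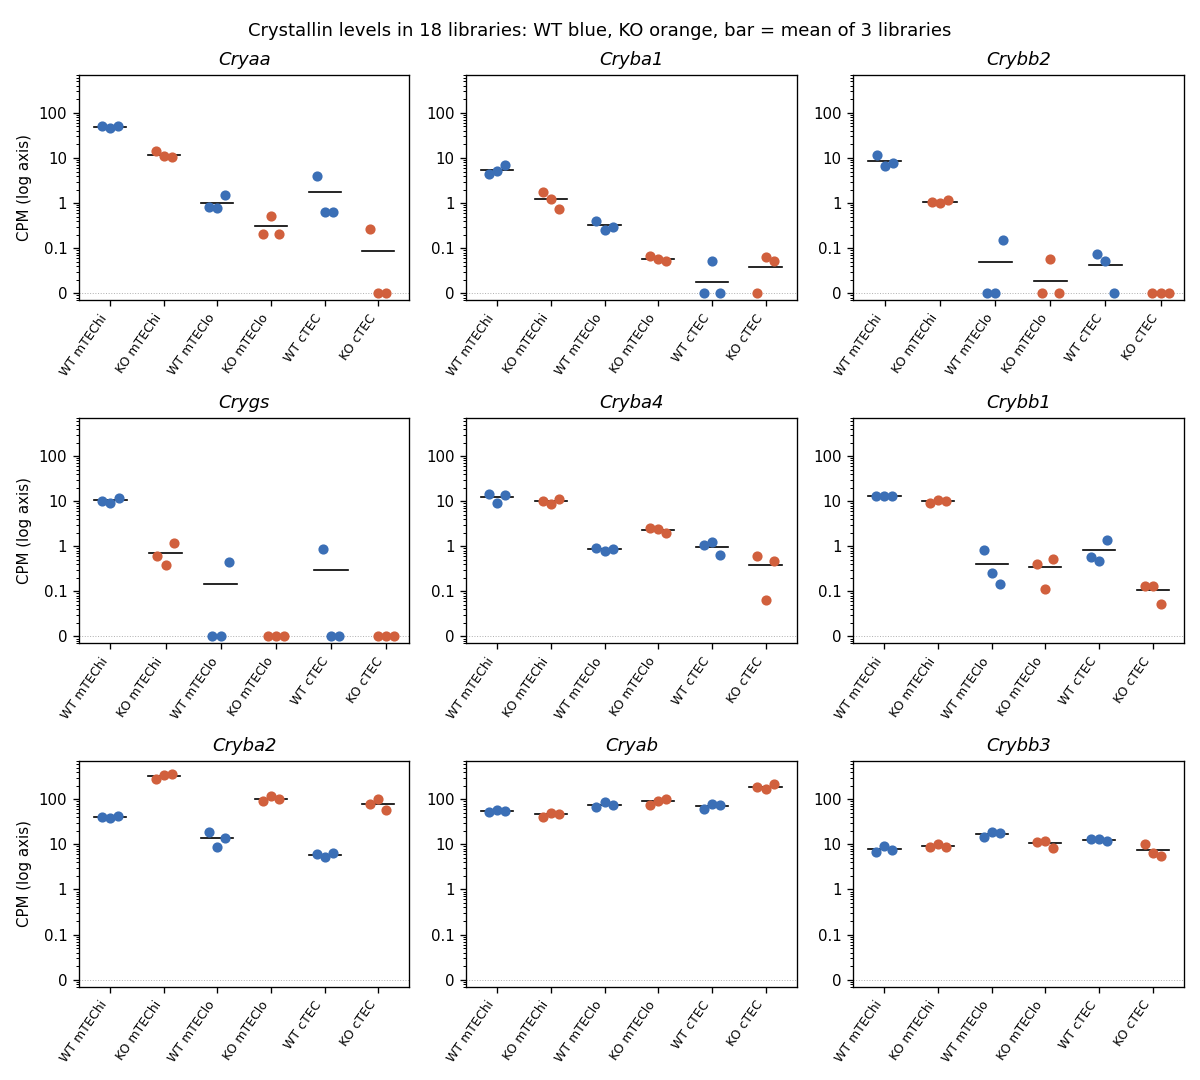
Level of each of the 9 crystallin genes in the 18 libraries, in CPM on a log axis (values of 0 drawn on the dotted line), with WT libraries in blue, KO libraries in orange and a bar at the mean of each group of 3. Cryba2 lies between 289 and 365 CPM in KO mTEChi and between 38.1 and 43.1 CPM in WT mTEChi. Cryaa, Cryba1, Crybb2 and Crygs, which were called, are lower in every KO mTEChi library than in any WT one. So are Cryab and Crybb1, which were not called. Over all genes tested, 55.9% had WT and KO mTEChi groups that did not overlap, in either direction.

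Among the alpha crystallins, Cryaa (Entrez 12954, chromosome 17, 31677931 to 31681730) was the one that fell in the KO. It was at 51.5, 45.7 and 52.3 CPM in the WT mTEChi libraries and at 14.2, 11.2 and 10.3 CPM in the KO mTEChi libraries. The groups did not overlap, and the log2 fold change was -2.06 (SE 0.44, adjusted p = 0.00138). In mTEClo the WT libraries ranged from 0.777 to 1.49 CPM and the KO libraries from 0.203 to 0.507 CPM, from 24 and 16 reads in all, and was not called (-1.67, adjusted p = 0.12). In WT cTEC, pool 1 stood apart at 4.08 CPM (56 reads) from 0.637 and 0.639 CPM in the other pools, and in KO cTEC 1 library held 4 reads and the others 0. This fall was called (-4.21, adjusted p = 0.000525), at -2.83 without WT pool 1 (adjusted p = 0.00294) and -7.38 without KO pool 4 (adjusted p = 0.000453), the latter against KO libraries with 0 reads.

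Cryab (Entrez 12955, chromosome 9, 50745951 to 50756636), the alpha chain with a wide range of tissues, had its lowest WT level in mTEChi, the subset where Cryaa was highest. It was at 54.8 ± 2.98 CPM in WT mTEChi, 75.8 ± 10.7 CPM in WT mTEClo (log2 difference -0.46, adjusted p = 0.0114, lost at 0.0741 without WT mTEClo pool 2) and 70.9 ± 9.56 CPM in WT cTEC (-0.37, adjusted p = 0.0337, which was lost in 5 of 6 omissions of 1 library, namely each WT mTEChi pool and WT cTEC pools 2 and 3, with adjusted p up to 0.128, and at 0.0821 with RLE scaling and 0.0876 with DESeq2). In the KO it rose in cTEC, from 60.3, 78.8 and 73.6 CPM to 183, 166 and 221 CPM, a log2 fold change of 1.42 (SE 0.14, adjusted p = 1.2e-07). Every KO cTEC library was above every WT one. In mTEChi (-0.25, 95% interval -0.56 to 0.07) and mTEClo (0.25, -0.05 to 0.55) it was not called, and the effect in cTEC differed from that in mTEChi by 1.67 (adjusted p = 4.68e-06) and from that in mTEClo by 1.17 on the log2 scale (adjusted p = 0.000229).

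Of 7 genes of small heat shock proteins and partners, the family of Cryab, 5 rose and 1 fell in KO cTEC (22.3% and 26.7% of all genes tested), with a median log2 fold change of 0.71 beside -0.02 over all genes. Hspb8, a chaperone that works with BAG3, went from 148.6 to 312 CPM (1.07, adjusted p = 3.52e-07) and Hspb6 from 11.1 to 25.6 CPM (1.20, adjusted p = 3.38e-06), whereas the co-chaperone Bag3 went from 127.2 to 84.2 CPM (-0.60, adjusted p = 0.00168). Hspb2, whose annotated span overlaps that of Cryab, went from 7.15 to 11.7 CPM (0.71, adjusted p = 0.007), and because the libraries do not record strand, reads from the shared stretch could belong to either gene. Of 17 genes of heat shock and tissue dissociation, 10 fell in the same comparison (26.7% of all genes tested). Cryab thus rose beside most small heat shock genes while 10 of 17 genes of the wider stress list fell.

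Among the acidic beta crystallins, Cryba2 (Entrez 12958, chromosome 1, 74889934 to 74898842) rose in all 3 KO subsets. In mTEChi it was at 39.6, 38.1 and 43.1 CPM in WT and at 289, 354 and 365 CPM in KO, with no overlap (log2 fold change 3.06, SE 0.21, adjusted p = 1.02e-08). This was the 12th largest rise among the 19364 genes tested. It moved from 18.6, 8.55 and 13.8 to 91.4, 117 and 100 CPM in mTEClo (2.90, SE 0.22, adjusted p = 7.4e-09) and from 6.19, 5.15 and 6.44 to 79.8, 100 and 56.9 CPM in cTEC (3.73, SE 0.23, adjusted p = 1.37e-10). Every KO cTEC library therefore lay above every library of WT mTEChi, the subset that was highest in WT. Per length it was the most abundant crystallin of KO mTEChi at 478 ± 58.6 RPKM, followed by Cryab at 39 ± 3.98 RPKM.

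Cryba2 was higher in mTEChi than in mTEClo both in WT (1.55, adjusted p = 7.88e-06) and in KO (1.71, adjusted p = 5.87e-07). It was higher in mTEClo than in cTEC in WT (1.22, adjusted p = 0.000851), whereas in the KO these groups overlapped and the difference was not called (0.39, adjusted p = 0.126). The rise in mTEChi did not differ detectably from that in mTEClo (difference 0.16, 95% interval -0.46 to 0.78). Against cTEC the difference was -0.68 for mTEChi (adjusted p = 0.0875) and -0.84 for mTEClo (adjusted p = 0.0495), the latter being lost in 8 of 12 omissions of 1 library (WT mTEClo pools 1 and 3, KO mTEClo pools 4 and 6, WT cTEC pools 1 and 2, KO cTEC pools 4 and 5; adjusted p up to 0.221). The annotated span of Cryba2 lies 4460 bases from Fev, a transcription factor gene of serotonin cells, and 1815 bases from Mir375, which was not tested. Fev rose in KO mTEChi, from 3.88, 4.51 and 4.34 CPM to 12.7, 10.7 and 12.4 CPM (1.48, adjusted p = 0.00646), and was not called in mTEClo (0.718 to 1.38 CPM, adjusted p = 0.137) or cTEC (0.799 to 0.424 CPM, adjusted p = 0.12).

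Genes of neuroendocrine cells, in which Cryba2 is known, did not follow it in every subset. Of 19 tested, 1 rose and 7 fell in KO mTEChi (17.1% and 19.3% of all genes tested), 7 rose and 2 fell in KO mTEClo (18.9% and 15.8%), and 1 rose and 8 fell in KO cTEC (22.3% and 26.7%). Their summed level was 427 to 440 CPM in WT and 263 to 319 CPM in KO mTEChi, 561 to 653 and 1424 to 2326 CPM in mTEClo, and 343 to 392 and 621 to 1609 CPM in cTEC. Most of the KO sums in mTEClo and cTEC was 1 gene, the granule protein gene Chga, which went from 177.6 to 1564 CPM in mTEClo (adjusted p = 1.27e-05) and, as the 1 gene that rose there, from 39.9 to 817 CPM in cTEC (adjusted p = 2.06e-07). The part of such cells in the Cryba2 values was not tested.

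Cryba1 (Entrez 12957, chromosome 11, 77718614 to 77725293), which encodes the beta A3 and A1 chains, was a low transcript of mTEChi. It was at 4.43, 5.11 and 6.92 CPM in WT mTEChi and at 1.79, 1.21 and 0.736 CPM in KO mTEChi, without overlap (-2.12, SE 0.51, adjusted p = 0.00332). In mTEClo the fall was called (adjusted p = 0.0327) on 8 reads in WT and 3 in KO, a ratio of 5.74 with a counting interval of 1.38 to 33.6, and was lost in every fit that left out 1 library of the compared groups (adjusted p 0.0501 to 0.107). In cTEC it had 1 read in WT and 2 in KO.

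Cryba4 (Entrez 12959, chromosome 5, 112246492 to 112263625), the remaining acidic chain, moved in different directions by subset. In mTEChi it was at 14.7, 9.27 and 13.8 CPM in WT and 9.92, 8.65 and 11.3 CPM in KO, which overlapped and was not called (-0.33, 95% interval -1.05 to 0.38). In mTEClo it rose from 0.919, 0.777 and 0.892 to 2.57, 2.37 and 1.94 CPM (1.39, SE 0.43, adjusted p = 0.0173, lost at 0.0611 without WT pool 2), with no overlap. In cTEC it fell from 1.09, 1.22 and 0.639 to 0.594, 0.0647 and 0.473 CPM (-1.34, adjusted p = 0.0215), a call on 50 and 19 reads that was lost without WT pool 2 (adjusted p = 0.0767) or KO pool 5 (adjusted p = 0.0955). The call was also lost in 1 of 4 other alternative runs. The effects in mTEClo and cTEC differed by 2.73 on the log2 scale (SE 0.64, adjusted p = 0.00346).

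The basic beta crystallins fell where they were called. Crybb2 (Entrez 12961, chromosome 5, 113058258 to 113070117), a major chain of the adult lens, was at 11.6, 6.53 and 7.86 CPM in WT mTEChi and 1.08, 0.987 and 1.18 CPM in KO mTEChi (-2.99, SE 0.56, adjusted p = 0.000566). The groups were far apart, and outside mTEChi the gene was all but undetected, with 1 read in WT mTEClo, 1 in KO mTEClo, 2 in WT cTEC and 0 in KO cTEC. A count of 0 allows up to 0.0605 CPM in KO cTEC (3 reads over the group).

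Crybb1 (Entrez 12960, chromosome 5, 112254563 to 112269585) held most of its level in KO mTEChi. It was at 13, 12.7 and 12.9 CPM in WT and 9.2, 10.4 and 10.3 CPM in KO, and although these did not overlap, which held for 7 of the 9 genes and 55.9% of all genes tested, the change was not called (-0.37, 95% interval -1.16 to 0.43). In cTEC it fell from 0.582, 0.478 and 1.38 CPM to 0.132, 0.13 and 0.0526 CPM (-2.91, SE 0.64, adjusted p = 0.000909), on 43 and 5 reads. The effect in mTEChi was 2.54 higher than that in cTEC on the log2 scale (adjusted p = 0.0144, lost at 0.0545 without KO cTEC pool 6). The patterns of Crybb1 and Cryba4 were close (r = 0.94 over 18 libraries), but no closer than those of Crybb1 and Cryaa, which lies on chromosome 17 (r = 0.94). The annotated spans of Crybb1 and Cryba4 overlap on chromosome 5, and reads from the shared stretch could not be assigned by strand. The starts of their promoter windows lie 3302 bases apart on opposite strands, and transcripts from these starts run away from each other. Only annotation upstream of its window start takes Cryba4 into the shared stretch.

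Crybb3 (Entrez 12962, chromosome 5, 113075839 to 113082236) lies 5721 bases from Crybb2 and did not share its pattern (r = -0.42). It was highest in WT mTEClo at 14.8, 18.8 and 18.3 CPM, then WT cTEC at 13.4, 12.8 and 11.9 CPM, and lowest in WT mTEChi at 6.65, 9.39 and 7.59 CPM, a range that reached neither of the others. In the KO it fell in mTEClo to 11.4, 11.8 and 8.36 CPM (-0.72, SE 0.22, adjusted p = 0.0156). In cTEC it fell to 10.1, 6.41 and 5.52 CPM (-0.79, SE 0.22, adjusted p = 0.00557). The call in mTEClo was lost without WT pool 2 (adjusted p = 0.0612), WT pool 3 (0.0538) or KO pool 6 (0.0863). In mTEChi it stayed uncalled at 8.73, 10.3 and 8.54 CPM in KO (0.21, 95% interval -0.29 to 0.71), and the KO groups of the 3 subsets overlapped.

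Crygs (Entrez 12970, chromosome 16, 22805203 to 22811410), the gamma crystallin of the lens cortex, had the largest fitted fall of the 9 in mTEChi. It went from 10.2, 9.03 and 11.9 CPM (201 reads) to 0.598, 0.38 and 1.18 CPM (18 reads), with no overlap (-3.92, SE 0.94, adjusted p = 0.00437), and the call was lost with DESeq2 at the same size of change (-3.91, adjusted p = 0.149). KO mTEClo and KO cTEC held 0 reads, and in WT cTEC all 12 reads came from pool 1, the pool that was also high for Cryaa. Of the 7 other gamma crystallin genes 4 could be tested, and in KO mTEChi 3 fell (Crygb, Crygc and Crygn), where 19.3% of all genes tested fell. Crygn, the gamma crystallin with beta-like structure, was the most abundant of them and went from 5.70 to 1.15 CPM (-2.27, adjusted p = 0.00171).

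Counted together in mTEChi, 1 of the 9 genes was higher in the KO (17.1% of all genes tested were), 4 were lower (19.3%) and 4 were not called. The median log2 fold change was -0.37 for the 9 and -0.11 for all genes. In mTEClo 2 were higher (18.9%), 2 lower (15.8%) and 5 not called, with medians of -0.72 and 0.01. In cTEC 2 were higher (22.3%), 4 lower (26.7%) and 3 not called, with medians of -1.34 and -0.02. The medians in mTEClo and cTEC include Cryba1, Crybb2 and Crygs, each with 3 or fewer reads in a compared group. The cTEC median is the value of Cryba4, whose call rested on 50 and 19 reads and was lost in 2 omissions of 1 library. The summed level of the 9 was 194 to 211 CPM in WT mTEChi and 375 to 456 CPM in KO mTEChi. Without Cryba2 and Cryab the sum of the other 7 was 97.8 to 113 CPM in WT and 43.1 to 45.5 CPM in KO, so the total was higher in the KO while the sum of the other 7 was lower. Leaving out Cryba2 takes away the only called rise, so the lower sum is no separate result. It does not describe each of the 7. Cryaa went from a mean of 49.9 to 11.9 CPM, while Cryba4, Crybb1 and Crybb3 were not called, Crybb3 having the higher mean in the KO.

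**Figure D2:**
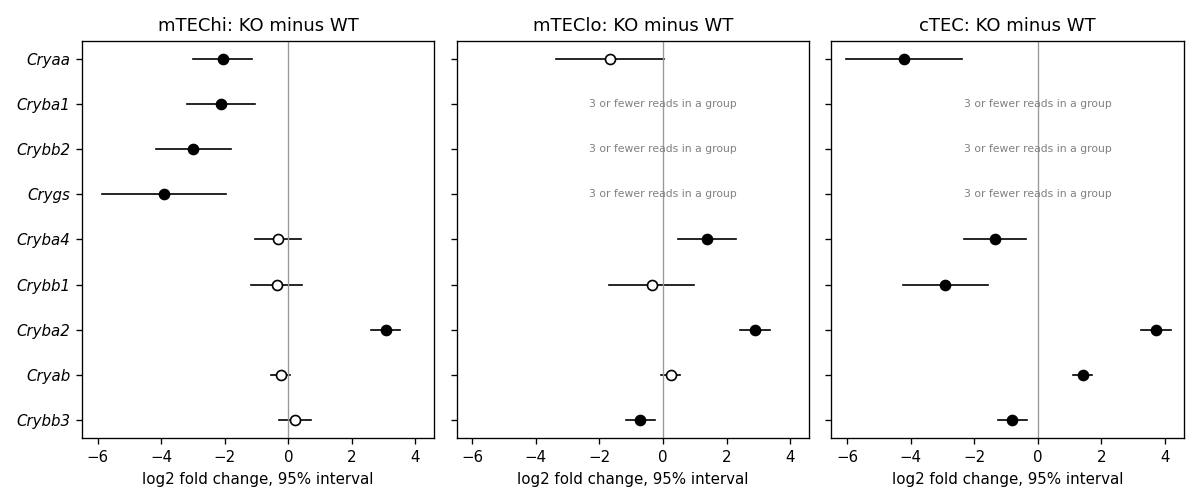
Log2 fold change of KO against WT for each gene in mTEChi, mTEClo and cTEC (points) with its 95% interval (lines), filled where the adjusted p was under 0.05; genes with 3 or fewer reads in a group are written as such. Cryba2 is the 1 gene to the right of 0 in every panel, at 3.06, 2.90 and 3.73.

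Transcripts typical of other cells also differed with genotype. In KO mTEChi, genes of macrophages and dendritic cells fell in 8 of 13 (1592 to 1646 CPM summed in WT, 855 to 1005 in KO), tuft cell genes rose in 13 of 18 (677 to 930 and 1730 to 1985 CPM) and genes of mature medullary TEC fell in 4 of 10, where 17.1% of all genes tested rose and 19.3% fell. In KO mTEClo, where 18.9% rose and 15.8% fell, tuft cell genes rose in 12 of 18 (2707 to 3893 and 5231 to 5526 CPM) and genes of mural and smooth muscle cells fell in 6 of 9. In KO cTEC, where 22.3% rose and 26.7% fell, thymocyte genes rose in 9 of 13 (55.2 to 130.5 CPM in WT, 255 to 405.5 in KO), tuft cell genes fell in 18 of 18 (1501 to 2544 and 291 to 342 CPM) and Aire fell (-1.53, adjusted p = 0.000894). Also in KO cTEC, genes of macrophages and dendritic cells fell in 5 of 13 (149 to 220 CPM summed in WT, 39.3 to 51 in KO). Fibroblast genes fell in 4 of 8 and rose in 1, while their sum was 702 to 883 CPM in WT and 1986 to 2174 CPM in KO. Genes of cortical TEC, like Cryba2, were raised in all 3 KO subsets, in 8 of 10 in mTEChi, 9 of 10 in mTEClo and 9 of 10 in cTEC, with median log2 fold changes of 1.09, 1.35 and 1.11. No member of these lists was at 0 in all 3 libraries of these groups. The part of these cells in the crystallin values was not tested.

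The levels outside mTEChi were set beside Aire for scale. In WT, cTEC held 4.21% of the mTEChi level of Aire, 3.58% of that of Cryaa, 7.81% of Cryba4 and 6.33% of Crybb1, but 14.7% of Cryba2, 129% of Cryab and 161% of Crybb3. WT mTEClo held 3.18% of the mTEChi level of Aire, 2.06% for Cryaa, 3.17% for Crybb1, 33.9% for Cryba2 and 220% for Crybb3. In both subsets Cryba2, Cryab and Crybb3 had the largest such shares of the 9 genes.

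**Figure D3:**
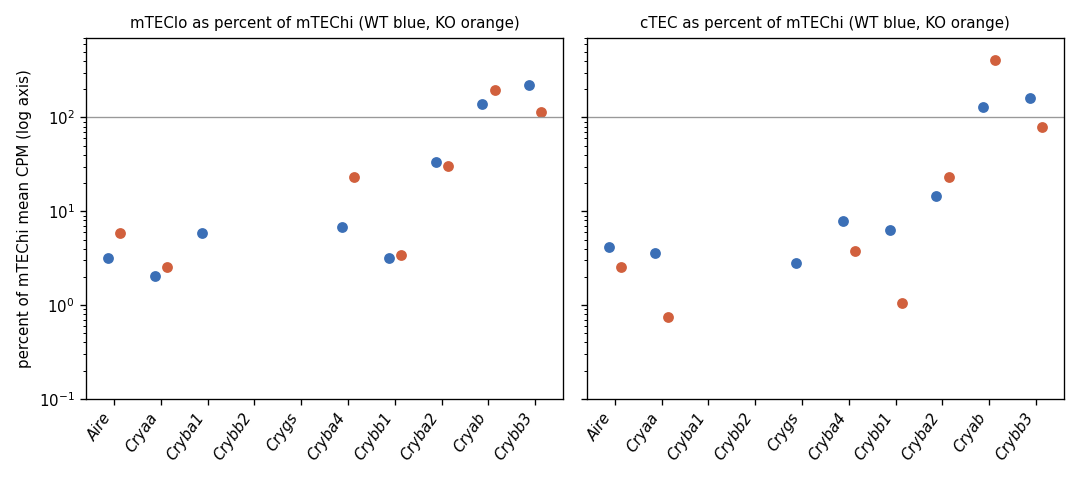
Mean CPM in mTEClo (left) and cTEC (right) as a percent of the mean in mTEChi of the same genotype, on a log axis, for Aire and the crystallin genes (WT blue, KO orange; groups with 3 or fewer reads are left out). In WT cTEC, Aire is at 4.21%, Cryaa at 3.58% and Cryba2 at 14.7%, while Cryab and Crybb3 lie above the line at 100%.

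In the KO the difference between subsets remained for most genes. Against KO mTEClo, 7 of 9 were higher in KO mTEChi (23% of all genes tested) and 1 was lower (22.4%), and against KO cTEC 7 were higher (34%) and 1 was lower (28.4%), the lower gene being Cryab each time and Crybb3 being uncalled. Crybb2 was at least 17.5-fold and Crygs at least 10.5-fold higher in KO mTEChi than in KO cTEC, with 3 reads over the 3 libraries taken as the floor. Between mTEClo and cTEC, 2 genes were higher in mTEClo (13%) and 0 lower (14.4%) in WT by edgeR, those 2 being Cryba1 and Cryba2 and also the 2 with an unadjusted p under 0.05, and DESeq2 gave 0 lower as well. The Cryba1 call rested on 8 reads in WT mTEClo and 1 in WT cTEC, a ratio of 16.96 with a counting interval of 2.27 to 752.5. It was lost with only the compared groups fitted (adjusted p = 0.155). In the KO 1 was higher in mTEClo (21.2%), which was Cryba4, and 1 lower (15.8%), which was Cryab. Tests of whether the KO effect itself differed by subset called 1 gene for mTEChi against mTEClo (13.5% of all genes tested, either direction), 3 for mTEChi against cTEC (31.5%) and 4 for mTEClo against cTEC (26%).

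Across the 18 libraries the 9 genes fell into patterns by level. Cryaa, Cryba1, Cryba4, Crybb1, Crybb2 and Crygs had Pearson correlations of log2(CPM + 1) with each other between 0.76 and 0.97. Cryba2 had 0.03 to 0.49 with these 6, Cryab -0.74 to -0.49 and Crybb3 -0.42 to -0.28. The libraries fall into 6 groups, so these values describe likeness of group levels and carry no p.

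**Figure D4:**
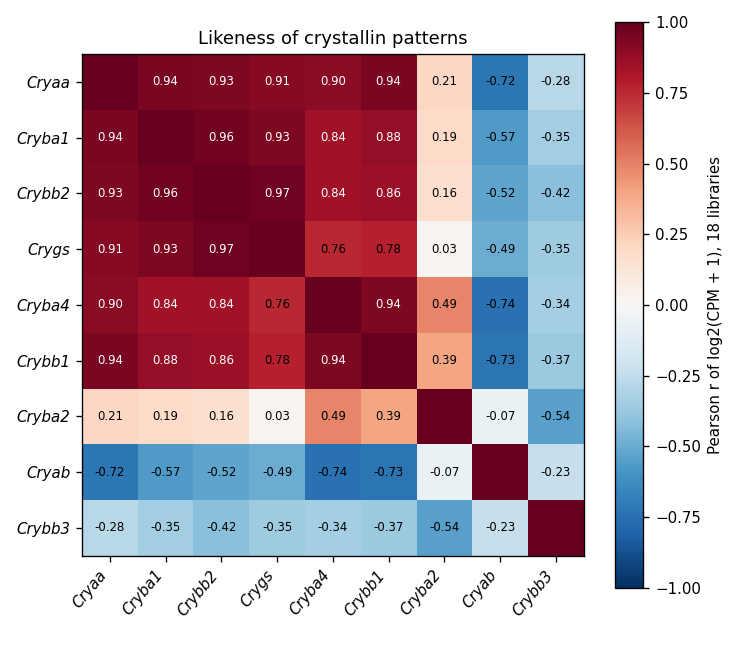
Pearson r of log2(CPM + 1) between each pair of crystallin genes over the 18 libraries, from -1 (blue) to 1 (red). The 6 genes Cryaa, Cryba1, Crybb2, Crygs, Cryba4 and Crybb1 form a block with r of 0.76 to 0.97, and Cryba2, Cryab and Crybb3 stand outside it.

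Among 14201 genes with at least 5 CPM in a group, those most like each crystallin differed between the patterns. Nearest to Cryaa were Lhx3, Gdf3, Csn1s2a, Zp3 and Aipl1 (r = 0.988 to 0.992), which include genes of pituitary, milk, egg coat and retina, and Gdf3 went from 49.2 to 12.5 CPM in KO mTEChi. Nearest to Crybb2 were Mgat4c, Fgf4, Cyp19a1, Tdgf1 and Psg23 (r = 0.991 to 0.996). Nearest to Cryba2 were Mpv17l2, Spg21, Hnrnpab, Echdc1 and Cs (r = 0.946 to 0.96). Nearest to Crybb3 was BC034090 (r = 0.922), with Zeb1 also named (r = 0.912), and nearest to Cryab was Tsen15 (r = 0.96). Of the 45 genes so named for the 9 crystallins, 25 were also named with a pseudocount of 0.1 and 9 with Spearman's rho.

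Of 14 lens transcription factor genes 11 could be tested, and in KO mTEChi 3 rose (Prox1, Tfap2a and Rarb; 17.1% of all genes tested rose) and 2 fell (19.3%), with a median of -0.11 that equals that of all genes to 2 decimals. Maf went from 12 to 7.65 CPM in mTEChi without passing the test (adjusted p = 0.0524). Of 15 genes of lens fibre structure 10 could be tested, and in KO mTEChi, against the same shares over all genes, 1 rose (Bfsp2, a filament protein) and 2 fell (Dnase2b, the nuclease that clears fibre nuclei, and Grifin, a galectin-like lens protein, from 8.53 to 0.487 CPM, -3.98, adjusted p = 0.000932).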

How the data were processed

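RNA was sequenced as 75 base paired ends from SMART-Seq v4 and Nextera XT libraries, which do not record strand, per the labels' protocols. The deposited values were raw read counts per gene, which the authors made with featureCounts on mm10, per the submitters' processing notes; the sources used here name neither the aligner nor the treatment of shared reads. All 27179 genes entered the library totals. The 9 members and the gene lists were chosen with earlier results of these data known.

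The main test was the quasi-likelihood test of edgeR 4.0.16 (glmQLFit, glmQLFTest; R 4.3.3). It used genes that filterByExpr kept (minimum count 10), TMM scaling and 1 fit of 6 group means to all 18 libraries, which leaves 12 residual degrees of freedom. There were 12 contrasts. P-values were adjusted over 19364 genes after Benjamini and Hochberg, and the threshold was 0.05. SE and 95% intervals were derived from the test statistic. All adjusted p-values are from this test unless DESeq2 (1.42.0) is named. They rest on the spread between pools of mice within groups, estimated jointly over all groups of the fit and not from the compared groups alone, except where only those were fitted. CPM used TMM-scaled totals. Floors and counting intervals cover counting error only, since no molecular identifiers were used. On simulated counts for these 19364 genes the method was tested with 200 genes changed in KO mTEChi. The changed genes had higher mean counts than Cryba1, Cryba4, Crybb1, Crybb2 and Crygs, so that trial does not cover calls on few reads.

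Subsets of the same pool come from the same mice, by the labels, and WT and KO pools are not paired. Same-pool libraries deviated together weakly (r = -0.03 to 0.38). Named genes were the 9 members, Kat7, Aire, chromosomal neighbours, up to 4 genes per list with the smallest adjusted p, and for each member the 5 genes with the most similar pattern. Genes of lists beyond this rule (Maf) were named after their values were seen, and 1 gene of a list is not reported here. Alternatives were another scaling (RLE), DESeq2, no filter, fits of the compared groups alone, the pool as a replicate block and leaving out each library. Protein sequences were not used here.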

Additional observations from a re-analysis of the deposited data

Results flagged for a closer look

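The effect of the KO differed between subsets, by the edgeR test of the difference itself, in 8 cases among the 9 crystallin genes and 3 pairs of subsets. Cryab had a KO effect in mTEChi of -1.67 relative to that in cTEC (log2, adjusted p = 4.68e-06) and in mTEClo of -1.17 relative to cTEC (adjusted p = 0.000229). The Cryba2 effect in mTEClo was -0.84 relative to that in cTEC (adjusted p = 0.0495), both being rises. The Cryba4 effect in mTEChi was -1.72 relative to that in mTEClo (adjusted p = 0.0439), and that in mTEClo was 2.73 relative to cTEC (adjusted p = 0.00346), with a rise in mTEClo and a fall in cTEC. The Crybb1 effect was 2.54 higher in mTEChi than in cTEC (adjusted p = 0.0144) and 2.55 higher in mTEClo than in cTEC (adjusted p = 0.0466). The Crybb3 effect was 1.00 higher in mTEChi than in cTEC (adjusted p = 0.0235). The 2 differences of Cryab and that of Cryba4 between mTEClo and cTEC were called in every alternative run, and each of the other 5 was lost in at least 1. Of 12 omissions of 1 library, that of Cryba4 between mTEChi and mTEClo was lost in 11, those of Cryba2 and of Crybb1 between mTEClo and cTEC in 8 each, that of Crybb3 in 4 (WT mTEChi pool 3, KO mTEChi pool 5, KO cTEC pools 5 and 6) and that of Crybb1 between mTEChi and cTEC in 1 (KO cTEC pool 6).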

How the results depend on the processing

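Over 704 repeats of 61 calls, 637 kept direction and call, 67 lost the call and 0 reversed, and 47 calls were kept in every repeat. With RLE scaling the genes lower in WT mTEChi than WT cTEC numbered 1 (2 as reported), and the interaction of mTEClo and cTEC had 1 lower (2). With DESeq2, 3 were lower in KO mTEChi (4), Crygs being lost, 1 was lower in KO mTEClo (2) and 1 in WT mTEChi against WT cTEC (2). Without a filter, 1 was lower in KO mTEClo (2), 0 had a lower effect in mTEChi than mTEClo (1) and 1 a higher effect in mTEClo than cTEC (2). With only the compared groups fitted, 1 was lower in KO mTEClo (2), 1 higher in WT mTEClo than WT cTEC (2), 1 had a higher effect in mTEChi than mTEClo (0), and mTEClo against cTEC had 1 higher and 1 lower (2 each). With the pool as a replicate block, 2 were higher in KO mTEClo than KO cTEC (1), 1 had a higher effect in mTEChi than mTEClo (0), 2 a lower effect in mTEChi than cTEC (1) and 1 a higher effect in mTEClo than cTEC (2). The block was run for comparisons between subsets, since no pool holds both genotypes. The causes were not tested.

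Leaving out 1 library at a time gave 1 to 2 higher and 0 to 1 lower in KO mTEClo (2 and 2 as reported), 1 to 2 lower in WT mTEChi than WT mTEClo, 0 to 2 lower in WT mTEChi than WT cTEC, and 1 to 2 higher in KO mTEClo than KO cTEC. For interactions it gave 0 to 1 lower for mTEChi against mTEClo, 0 to 3 higher and 1 to 2 lower for mTEChi against cTEC, and 1 to 2 in either direction for mTEClo against cTEC. The 1 higher and 4 lower genes of KO mTEChi were counted in each omission. Genes lower in KO cTEC numbered 3 to 5 (4 as reported), both in the omissions and in the other alternatives. Among the genes most like a member, 9 of 45 were shared with Spearman's rho and 25 with a pseudocount of 0.1.

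Over all genes, RLE moved the median of KO mTEChi against KO cTEC from 0.04 to 0.14 (log2). Fitting only the compared groups gave 1049 genes higher (2515 as reported) and 1857 lower (2798) in WT mTEClo than WT cTEC, 2543 with a higher effect in mTEChi than mTEClo (1301) and 1645 with a lower effect in mTEChi than cTEC (2562). Without WT mTEChi pool 3, 2465 genes fell in KO mTEChi (3741). Depth limits Cryba1, Crybb2 and Crygs outside mTEChi, where groups held 0 to 12 reads.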
